A study of Saccharomyces cerevisiae with 6 samples.

Results

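The genes described here are 9 genes of aromatic amino acid metabolism in the budding yeast Saccharomyces cerevisiae: ARO1, ARO2, ARO3, ARO4 and ARO7 of synthesis, the aminotransferase gene ARO8, ARO9 and ARO10 of breakdown, and ARO80, which encodes the activator of breakdown. Each was read from the probe set whose annotation names that gene alone, and each had 1 such probe set, so all 9 were found among 5551 genes tested. Brightness chose a probe set only for genes that had several. The group was put together with earlier results of these arrays known, in which ARO9 and ARO10 stood among the largest rises in the mutant, so the strain differences of the 9 genes are given as a description. Where the fit over all genes is mentioned for them, its calls stand beside the share of all genes and support nothing.

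Cultures of 2 strains in rich medium (YPD) were moved from 30 to 37 °C, and RNA sampled 60, 90 and 120 min later was measured on 6 arrays, 1 for each strain and time. Both strains were MATa and carried ura3-52, lys2-801 and ade2-101 together with the deletions trp1∆63, his3∆200 and leu2∆1. In both, HIS3 had replaced the chromosomal TRA1 gene, and the cells lived on a plasmid copy (centromeric, marked with LEU2) of either wild-type TRA1, in the wild-type strain, or the temperature-sensitive allele tra1-2ts. Tra1 is the target of transcriptional activators within SAGA and NuA4, coactivator complexes that both contain it. None of the 6 arrays is of cells before the shift, so whether a strain difference was already present at 30 °C was not measured. Rose, fell and went, used of a gene or its mean, compare tra1-2ts with wild type and not times. Since each strain has 1 array per time, its 3 times serve as its replicates, and the spread within a strain includes change over time.

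Values are log2 signals after RMA (robust multi-array average), which makes the distributions of all arrays alike, so a difference is measured against the other genes of the array, and values of different genes cannot be compared as levels. Array medians over all 6776 probe sets lay between 6.14 and 6.20. Pearson's r across probe sets was at least 0.992 within a strain and at most 0.980 between strains. The TRA1 probe set, which does not tell the alleles apart, read 8.10 to 8.68 on the wild-type arrays and 9.35 to 9.38 on the mutant arrays. All 4 marker genes of mating type a cells were called higher in tra1-2ts, with a mean log2 value of 8.40 to 8.72 on the wild-type arrays and 9.88 to 10.08 on the mutant arrays. Of the 4 markers of mating type alpha, MF(ALPHA)1 and SAG1 were also called higher, with a list mean of 4.54 to 4.81 on the wild-type arrays and 4.97 to 5.16 on the mutant arrays. The part of either list in the results below was not tested.

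Yeast makes phenylalanine, tyrosine and tryptophan from a common precursor, chorismate, which the shikimate pathway builds from phosphoenolpyruvate and erythrose 4-phosphate. The route is controlled largely by feedback of the end products on its first enzyme, and several of its genes are targets of Gcn4, the activator of amino acid synthesis. In the other direction, yeast takes nitrogen from aromatic amino acids by the Ehrlich pathway, which removes the amino group, decarboxylates the keto acid and reduces the product to a fusel alcohol such as phenylethanol or tryptophol. The zinc cluster protein Aro80 switches on ARO9 and ARO10 when aromatic amino acids are present, and the GATA factors Gln3 and Gat1 take part when good nitrogen sources are lacking.

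The breakdown genes were higher in tra1-2ts at every time, while most synthesis genes had lower means, by 1.14-fold (ARO1) to 1.84-fold (ARO4). ARO10 was 4.82-fold and ARO9 3.68-fold higher in the mutant. The wild-type values of ARO10 lay near background, so its fold is uncertain. Among the synthesis genes the difference was largest for ARO4, 1.84-fold lower, and ARO3, which encodes the isozyme of the same reaction, was 1.07-fold higher with overlapping arrays. ARO8, the aminotransferase gene shared by synthesis and breakdown, was 1.46-fold higher. The plot of levels by time shows all of these values.

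**Figure D1:**
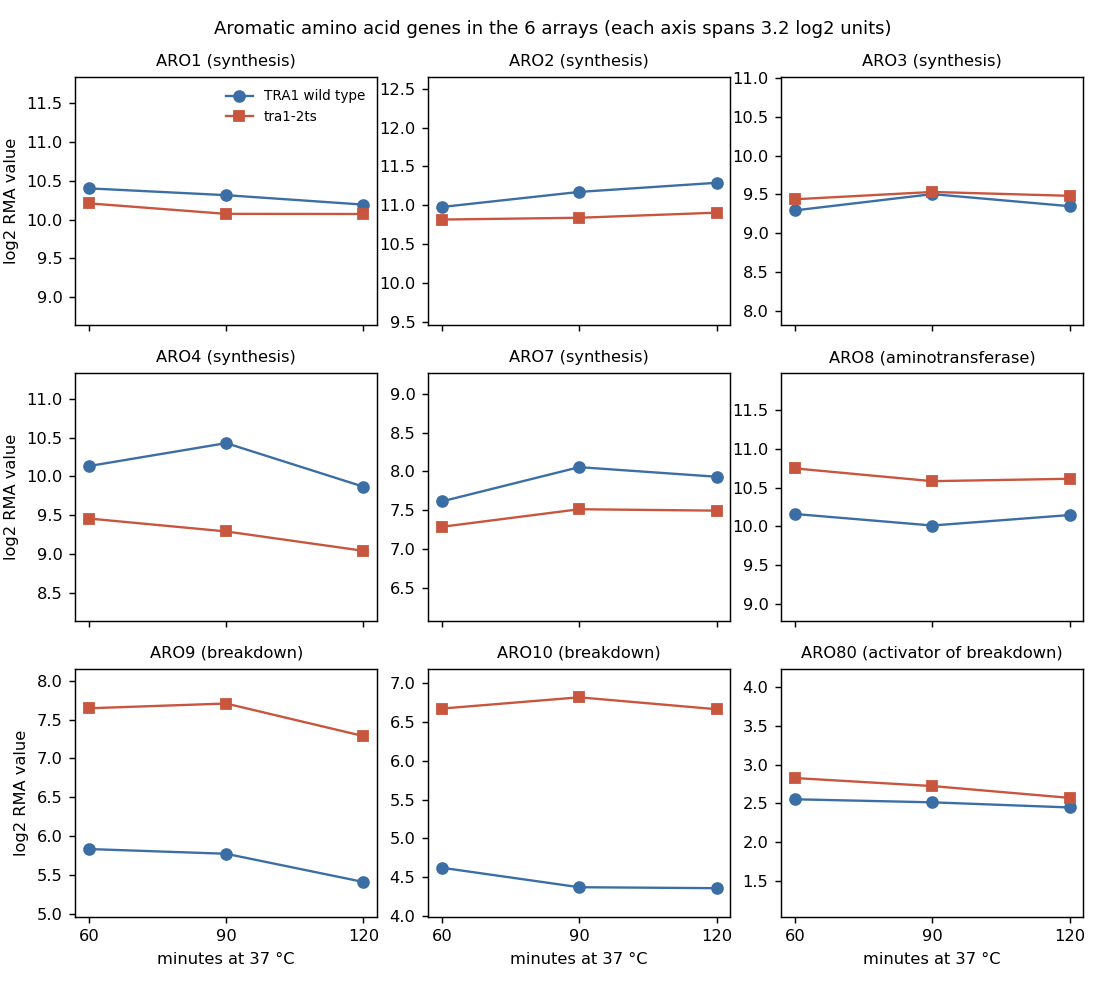
Log2 RMA value (vertical axis) of each of the 9 genes against minutes at 37 °C (horizontal axis), 1 array per point, with circles for wild type and squares for tra1-2ts. Each panel spans the same number of log2 units, so slopes and gaps can be compared between panels but levels cannot; ARO9 and ARO10 show the widest gaps, and the ARO3 lines nearly coincide.

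ARO10 encodes a decarboxylase that acts on phenylpyruvate and related keto acids. In wild type it read 4.62, 4.37 and 4.36 at 60, 90 and 120 min, and in tra1-2ts 6.67, 6.82 and 6.66 (log2 RMA). The lowest mutant array was thus well above the highest wild-type array, and both strains varied little over time. The mean went from 4.45 ± 0.15 to 6.72 ± 0.09 (SD, n = 3 arrays each), which is 2.27 ± 0.10 (SE) higher. Of the 5551 genes, ARO10 had the second-largest difference towards the mutant, at rank 2. Its wild-type values lay near background. The highest mean among the mouse control probe sets of the array was 3.93, and a mouse control read 4.22 on the wild-type 120 min array. The size and rank of the ARO10 difference are therefore uncertain.

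ARO9 encodes the aromatic aminotransferase that starts breakdown. It read 5.83, 5.77 and 5.41 in wild type and 7.65, 7.71 and 7.29 in tra1-2ts at 60, 90 and 120 min. The strains did not overlap, and in both of them the 120 min array was the lowest. The mean went from 5.67 ± 0.23 to 7.55 ± 0.23 (SD, n = 3 each), a difference of 1.88 ± 0.15 (SE), at rank 8 of all genes. At each time ARO10 differed between the strains by more than ARO9 did, by 0.24, 0.51 and 0.43 log2 units at 60, 90 and 120 min. Their profiles over the 6 arrays, each relative to the gene's own mean, correlated with r = 0.988, a value set mainly by the gap between the strains.

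ARO80 encodes the activator of both. Its 6 values, 2.55, 2.51 and 2.45 in wild type and 2.83, 2.72 and 2.57 in tra1-2ts, all lay under 3.93, the highest mean among the 4 mouse control probe sets of the array. Its difference of 0.20 ± 0.10 (SE) is therefore within a range where the array does not separate a transcript from background, and the arrays do not show whether ARO80 mRNA changed. Only amounts of mRNA were measured, so the activity of Aro80 was not measured.

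ARO8 encodes the aminotransferase with a broad range that makes phenylalanine and tyrosine from their keto acids and can also act in breakdown, and it is a target of Gcn4. It read 10.16, 10.01 and 10.15 in wild type and 10.75, 10.58 and 10.61 in tra1-2ts. The mutant arrays were all higher, and neither strain varied by more than 0.09 (SD). The difference was 0.54 ± 0.09 (SE). The other aminotransferase gene, ARO9, differed by more than ARO8 at each time, by 1.23, 1.37 and 1.41 log2 units at 60, 90 and 120 min.

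ARO3 and ARO4 encode the isozymes of DAHP synthase, the first step of the shikimate pathway, which are inhibited by phenylalanine and by tyrosine, respectively. ARO4 read 10.13, 10.43 and 9.87 in wild type and 9.46, 9.29 and 9.04 in tra1-2ts. The strains did not overlap, and ARO4 had the widest spread of the 9 genes in wild type, with an SD of 0.28. Its difference was -0.88 ± 0.16 (SE), the lowest of the 5 synthesis genes and at rank 250 from the lowest of all genes. ARO3 read 9.29, 9.50 and 9.35 in wild type and 9.44, 9.53 and 9.48 in tra1-2ts. These overlapped, with a difference of 0.10 ± 0.09 (SE). The strain difference of ARO4 was below that of ARO3 by 0.82, 1.17 and 0.96 log2 units at 60, 90 and 120 min (mean 0.98 lower, SD 0.17 over 3 times).

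The middle of the pathway showed small differences. ARO1 encodes the pentafunctional protein that carries the next 5 steps, and it read 10.40, 10.32 and 10.19 in wild type and 10.21, 10.08 and 10.07 in tra1-2ts. The strains overlapped, with a difference of -0.19 ± 0.09 (SE). ARO2 encodes chorismate synthase, the last shared step. It read 10.98, 11.17 and 11.29 in wild type and 10.82, 10.84 and 10.90 in tra1-2ts, a difference of -0.29 ± 0.10 (SE). The ARO2 strains did not overlap, though the gap between the lowest wild-type array and the highest mutant array was narrow. ARO7 encodes chorismate mutase, which commits chorismate to phenylalanine and tyrosine. It read 7.61, 8.05 and 7.93 in wild type and 7.29, 7.51 and 7.49 in tra1-2ts, with no overlap and a difference of -0.44 ± 0.13 (SE).

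**Figure D2:**
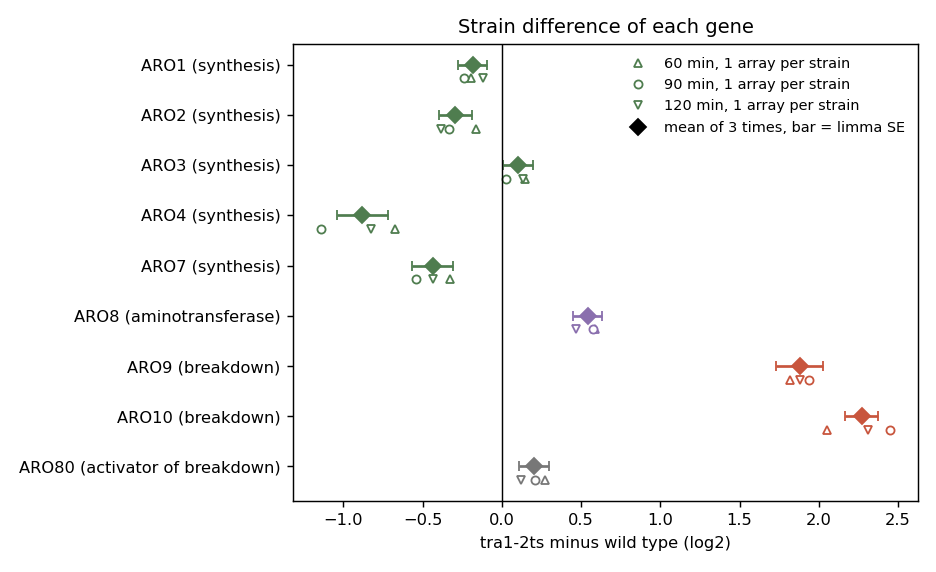
Difference tra1-2ts minus wild type (log2, horizontal axis) of the 9 genes (vertical axis). Filled diamonds are means over 3 times with the limma standard error, and open symbols are the differences at 60, 90 and 120 min, each from 1 array per strain; the breakdown genes lie at 1.88 and 2.27, and ARO4 at -0.88 stands apart from ARO3 at 0.10.

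In the limma fit over all 5551 genes (Benjamini-Hochberg adjusted p under 0.05), 6 of the 9 genes were past the threshold, ARO8, ARO9 and ARO10 as higher and ARO2, ARO4 and ARO7 as lower. Of all tested genes 40.6% were past it, 18.3% higher and 22.3% lower, and nothing is read from the count for genes chosen with this contrast known. The arrays of the strains did not overlap for 7 of the 9 genes, the 6 above and ARO80, against 53.8% of all genes. The number of lower genes went from 3 to 1, ARO4, when 1 of 4 arrays was left out: wild type at 90 or 120 min, or tra1-2ts at 60 or 90 min. ARO2 and ARO7 dropped out there, and ARO2 also dropped out without the tra1-2ts 120 min array, with arrays centred on their median and with quantile normalization over the tested genes.

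Synthesis and breakdown were set against each other within each array, with every gene taken relative to its own mean over the 6 arrays. The mean of the 5 synthesis genes minus the mean of ARO9 and ARO10 was 0.96, 1.32 and 1.34 log2 units in wild type and -1.22, -1.32 and -1.08 in tra1-2ts at 60, 90 and 120 min. The centring places the strain means equally far above and below 0, so the opposite signs carry no information and only the gap between the strains is read. The strain means differed by -2.41, of which the breakdown genes contributed 2.07 (4.21-fold higher) and the synthesis genes -0.34 (1.26-fold lower). The breakdown mean includes ARO10, which lay near background in wild type. The synthesis mean was not shared evenly: ARO4 differed by -0.88, ARO7 by -0.44, ARO2 by -0.29, ARO1 by -0.19 and ARO3 by 0.10. The contrast is a description, since the genes that enter it were chosen.

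**Figure D3:**
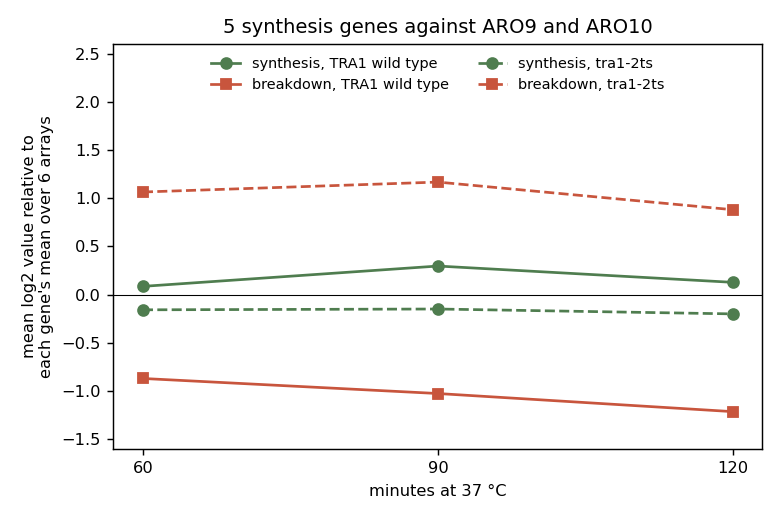
Mean log2 value relative to each gene's mean over the 6 arrays (vertical axis) against minutes at 37 °C (horizontal axis), for the 5 synthesis genes (circles) and for ARO9 and ARO10 (squares), with solid lines for wild type and dashed lines for tra1-2ts, 1 array per point. The breakdown lines lie about 2.07 units apart between strains and the synthesis lines 0.34 units apart in the opposite order.

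How the genes changed between 60 and 120 min was not used to choose them and was tested with a linear slope shared by both strains. None of the 9 passed (limma, adjusted p from 0.195 to 0.855), and among all 5551 genes 18 did, 0.324%. At an unadjusted p under 0.05 the count was 1 of 9, against 16.2% of all genes. That gene was ARO9, lower with time by 0.39 log2 units per 60 min (SE 0.12, 95% interval -0.68 to -0.10; limma adjusted p = 0.195). It changed by -0.42 in wild type and -0.36 in tra1-2ts from 60 to 120 min. ARO10 had a slope of -0.14 (95% interval -0.41 to 0.13), with a change of -0.26 in wild type and -0.01 in tra1-2ts.

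The synthesis genes had slopes of both signs. The slope of ARO4 was -0.34 per 60 min (95% interval -0.71 to 0.03), that of ARO1 -0.17 and that of ARO3 0.05. Those of ARO7 and ARO2 were 0.26 (95% interval -0.04 to 0.56) and 0.20 (95% interval -0.03 to 0.43). ARO8 had a slope of -0.07 and ARO80 one of -0.18. The 95% intervals of these 7 slopes all include 0.

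**Figure D4:**
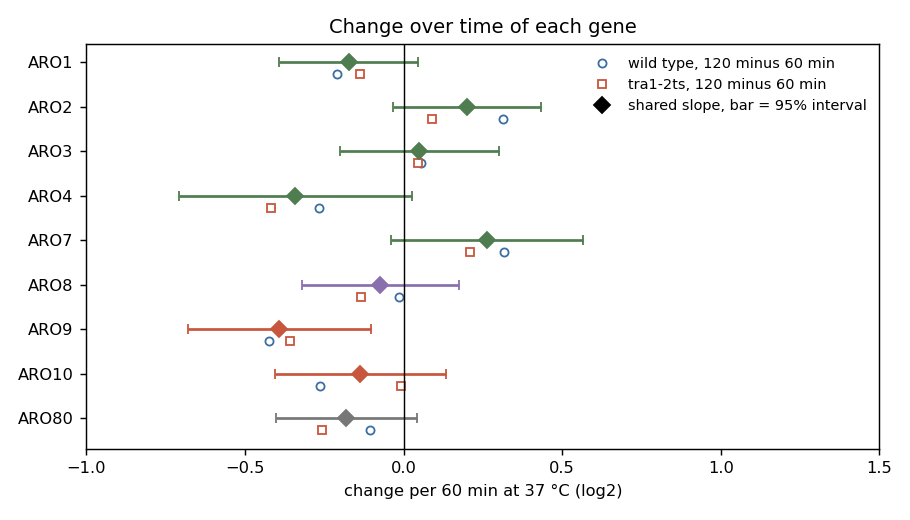
Change per 60 min at 37 °C (log2, horizontal axis) of the 9 genes (vertical axis). Filled diamonds are the slope shared by both strains with its 95% interval, circles and squares are the plain difference between the 120 and 60 min arrays in wild type and in tra1-2ts; the interval of ARO9 alone lies wholly on one side of 0, before adjustment for the number of genes tested.

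Whether the strains changed differently over time was tested by the difference of their slopes. None of the 9 genes passed, and none of the 5551 genes did (0% in limma), while 392 of all genes, 7.06%, and none of the 9 had an unadjusted p under 0.05. The slope difference was 0.07 per 60 min for ARO9 (95% interval -0.56 to 0.69), 0.25 for ARO10 (95% interval -0.28 to 0.79) and -0.15 for ARO4 (95% interval -0.95 to 0.65). Each slope rests on 3 arrays, and the intervals hold values of both signs, so the arrays do not show whether the strain gap widened or closed.

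The branches that lead from chorismate to the single amino acids were measured by other genes. Of 58 genes in 11 lists around the pathway, 8 were higher and 16 lower in tra1-2ts (limma, adjusted p under 0.05 over all genes), 24 in all, a share near the 40.6% of all genes, with a median difference of -0.07 against 0.00 over all tested genes. These lists too were chosen with earlier results of the arrays known, so the counts below are a description, to be read against the 18.3% higher and 22.3% lower among all genes. Without both 90 min arrays 2 were higher and 12 lower. The phenylalanine and tyrosine branch held none that passed: PHA2, prephenate dehydratase, differed by -0.07 ± 0.10 (SE) and TYR1, prephenate dehydrogenase, by -0.21 ± 0.10. Of 5 genes of the tryptophan branch 1 rose and none fell, with a median of -0.04. It was TRP3, which encodes a bifunctional enzyme of that branch and went from 6.76 ± 0.01 to 7.39 ± 0.11 (SD, n = 3), a rise of 0.63 ± 0.09 (SE; limma adjusted p = 0.000987). Both strains carry the deletion trp1∆63 and depend on tryptophan from the medium. TRP1 is 1 of the 5 genes and its difference is the median, so that median does not stand for an intact gene. In the branch to para-aminobenzoate, a precursor of folate, ABZ1 rose 1.86-fold and ABZ2 fell 1.40-fold (limma adjusted p = 0.0174 and 0.0216). The call of ABZ1 ended without the tra1-2ts 90 min array (limma adjusted p = 0.0651) or without both 90 min arrays (0.121), and that of ABZ2 ended when any of 4 arrays was left out: wild type at 60 or 120 min (0.0563 and 0.0609) or tra1-2ts at 90 or 120 min (0.0609 and 0.0629), and without both 60 or both 120 min arrays (0.0824 and 0.117).

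The supply of erythrose 4-phosphate runs through the pentose phosphate pathway, where 2 of 7 genes were lower and 0 higher by the test (median -0.12). RKI1, ribose 5-phosphate isomerase, fell 2.28-fold from 6.76 ± 0.38 to 5.57 ± 0.15 (SD, n = 3; limma adjusted p = 0.00122). ZWF1, glucose 6-phosphate dehydrogenase, fell 1.79-fold from 8.46 ± 0.21 to 7.62 ± 0.16 (adjusted p = 0.00142). The other 5 genes, TKL1, TKL2, TAL1, NQM1 and RPE1, did not pass, with differences from -0.16 (RPE1) to 0.13 (TKL1).

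ESBP6, a gene of the monocarboxylate transporter family, is another target of Aro80. It read 7.16, 7.46 and 7.08 in wild type and 6.69, 6.95 and 7.14 in tra1-2ts. The strains overlapped, and the difference of -0.30 ± 0.14 (SE) did not pass the test (limma adjusted p = 0.12). It passed as lower without both 120 min arrays (-0.49, adjusted p = 0.0421).

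Of 14 other genes that can serve the Ehrlich pathway, 3 rose and 3 fell, with a median of 0.06. ATF2, an alcohol acetyltransferase, rose 2.17-fold, and the pyruvate decarboxylase genes PDC5 and PDC1 rose 1.31- and 1.29-fold (limma adjusted p = 0.0109 and 0.00907). The alcohol dehydrogenase genes ADH2, ADH5 and ADH4 fell 3.44-, 1.54- and 1.38-fold. BAT2, the cytosolic aminotransferase of branched-chain amino acids and their entry into the Ehrlich pathway, differed by 0.16 ± 0.11 (SE) and did not pass. Without both 90 min arrays the calls of PDC1, PDC5 and ADH4 ended (limma adjusted p = 0.0855, 0.125 and 0.0848), as did that of PDC1 without both 120 min arrays (0.0549). With the time point as a replicate block THI3 also passed as higher (limma adjusted p = 0.0445 against 0.0504).

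Of 9 genes for transport of aromatic and other large neutral amino acids, 6 fell and 1 rose, with a median of -0.44, beside 22.3% and 18.3% of all genes. Whether this list departs from other genes was not tested. TAT2, a high-affinity permease for tryptophan and tyrosine, went from 7.65 ± 0.04 to 7.02 ± 0.05 (SD, n = 3), a fall of 1.55-fold (limma adjusted p = 0.000657). TAT1, BAP2 and BAP3, permeases of the same family, fell 1.57-, 1.62- and 1.58-fold. Of the vacuolar transporter genes, AVT1 and AVT3 each fell 1.36-fold and AVT4 rose 1.73-fold. The calls of AVT1, AVT3 and AVT4 ended without both 90 min arrays (limma adjusted p = 0.0569, 0.0637 and 0.101). GAP1, the general amino acid permease gene that poor nitrogen sources induce, differed by -0.05 ± 0.11 (SE) and did not pass. None of 5 genes of the plasma membrane sensor that turns on several amino acid permease genes, SSY1, PTR3 and SSY5 with the factors STP1 and STP2, passed in either direction.

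Of 6 genes of the kynurenine pathway, by which tryptophan is turned into NAD, 3 were lower and 0 higher by the test (median -0.27). BNA7 fell 1.75-fold, BNA1 1.56-fold and BNA6 1.25-fold. The call of BNA6 (limma adjusted p = 0.0467) ended with arrays centred on their median (adjusted p = 0.0632), with quantile normalization over the tested genes (adjusted p = 0.0889) and when any array other than that of tra1-2ts at 60 min was left out (0.0592 to 0.147), or both 90 or both 120 min arrays (0.255 and 0.137).

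Of 5 regulators of nitrogen use 1 passed as higher and 1 as lower, with a median of -0.16. That median is the difference of DAL80, which lay under the mouse controls in both strains, so it does not stand for a typical change. GLN3, which encodes a GATA activator, passed as higher and read 4.30 ± 0.11 in tra1-2ts (SD, n = 3). Its wild-type mean of 3.86 ± 0.09 lay under the mouse controls, so the size of the difference is not given. GZF3, a GATA repressor gene, fell 1.64-fold. GAT1, the other GATA activator gene, differed by 0.12 ± 0.10 and did not pass. GCN4 rose from 11.68 ± 0.07 to 12.14 ± 0.09 (SD, n = 3; 1.38-fold, adjusted p = 0.00405). The calls of GLN3 and GCN4 ended without both 90 min arrays (limma adjusted p = 0.0612 and 0.0517). Gcn4 is controlled mainly at translation, which the arrays do not measure.

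**Figure D5:**
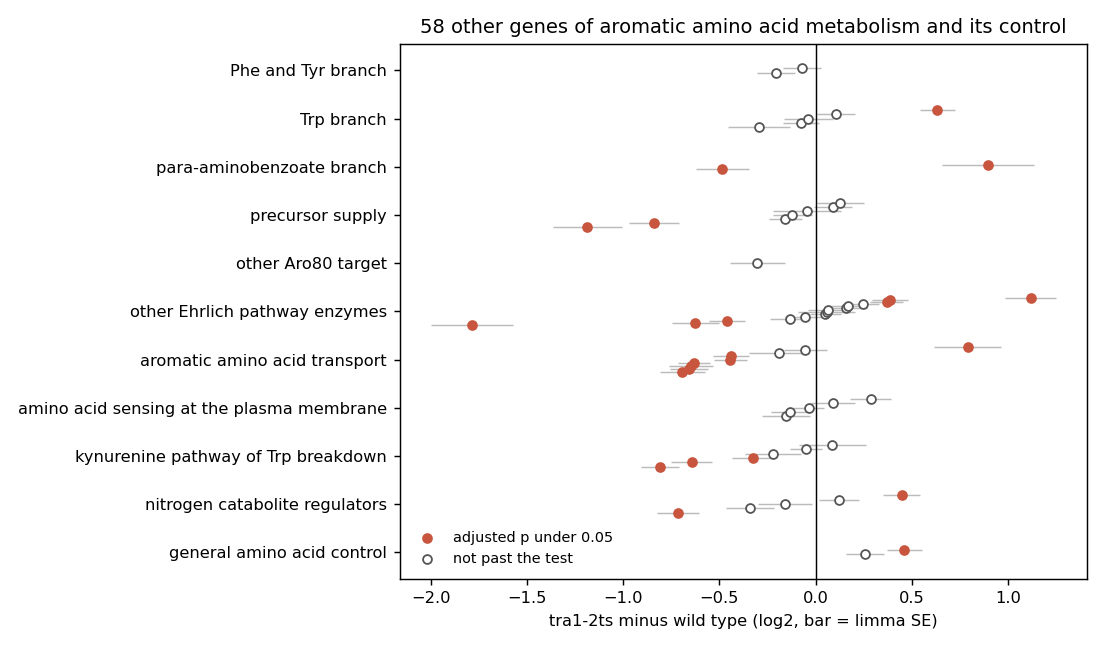
Difference tra1-2ts minus wild type (log2, horizontal axis, with the limma standard error) of 58 other genes, grouped by list (vertical axis). Filled points are called by limma (adjusted p under 0.05), 8 higher and 16 lower; 6 of the 9 transport genes are among those called lower.

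The genes whose 6 values, each gene relative to its own mean, lay nearest to the mean profile of ARO9 and ARO10 by Euclidean distance over the 6 arrays were, in order, LYS1, COS8, DAN1, CAR2 and BAR1, at distances of 0.47 to 0.73 log2 units. ARO9 and ARO10, which make up that mean, each lay 0.30 from it and 0.60 from each other. CAR2, ornithine aminotransferase of arginine breakdown, went from 9.52 ± 0.27 in wild type to 11.12 ± 0.04 in the mutant (SD, n = 3). LYS1, saccharopine dehydrogenase of lysine synthesis, went from 7.45 ± 0.20 to 9.29 ± 0.29. COS8 belongs to a subtelomeric family of near-identical genes, so the copy it reads is uncertain. DAN1 read 4.41, 3.74 and 4.33 in wild type at 60, 90 and 120 min, near the mouse controls, so its place in this order is uncertain. Nearest to the mean profile of the 5 synthesis genes were EPL1, DCP2, MRP20, GCD7 and ATP14. EPL1 lay under the mouse controls in both strains and DCP2 in tra1-2ts, and the other 3 had strain differences of -0.30 to -0.32.

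Neighbouring genes on the chromosome, taken from the gene order of RefSeq assembly R64, were compared as well. Of the 18 genes next to the 9, 15 were tested, of which 3 passed as higher and 4 as lower, together a share near the 40.6% of all genes. One neighbour of ARO9 was SPL2, a regulator of phosphate uptake, which passed as lower, with means of 6.71 ± 0.36 on the wild-type arrays and 3.32 ± 0.17 on the mutant arrays (SD, n = 3). The mutant mean lay under the mouse controls, so the size of its fall is not given. The other neighbour, YHR138C, differed by 0.17 ± 0.16 (SE) and did not pass. The tested neighbour of ARO10 was YRA1, an mRNA export gene, which rose 1.64-fold (limma adjusted p = 0.00128). RPL9A next to ARO2 fell 1.88-fold, HKR1 and SIP1 on the 2 sides of ARO80 fell 1.52-fold and rose 1.28-fold, MTC5 next to ARO1 rose 1.22-fold, and JID1 next to ARO7 passed as lower with a mutant mean of 3.07, under the mouse controls, so no fold is given. The calls of HKR1 and RPL9A ended without both 90 min arrays (limma adjusted p = 0.0541 and 0.0991), as did that of RPL9A without both 120 min arrays (0.0637). Those of MTC5 and SIP1 ended without any 1 of the tra1-2ts arrays (up to 0.0664 and 0.0801), without both arrays of any time (up to 0.165 and 0.153) and without the wild-type 90 min and 120 min array, respectively (0.0629 and 0.0742). ARO9 and SPL2 thus lay side by side with differences of opposite sign.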

How the data were processed

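The authors deposited a log2 value for every probe set on every array. RMA and the R package oligo made them, per the submitters' processing notes; versions are not given in the sources used here. Biotin labelling of total RNA used a kit for 3' in vitro transcription, per the labels' protocols. Of 6776 probe sets, 5668 name 1 gene, 183 several and 925 none; the first were matched by gene ID to RefSeq assembly R64. Where a gene had several probe sets (91 genes), the one brightest on average was used, which left 5551 genes. Columns of other samples numbered 0.

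Tests used limma 3.58.1 in R 4.3.3, two-sided, at a threshold of 0.05 after Benjamini-Hochberg adjustment over all 5551 genes: genotype alone (4 residual degrees of freedom), genotype with a slope over minutes (3), and a slope per strain (2). The strain and slope fits were run on simulated data with planted effects. No slope difference was planted. The simulated noise was independent between arrays, so dependence between the times of a strain was not covered. Figures used matplotlib 3.10.9. Members and lists were chosen with earlier results of these data known. Named are the 9 genes, every list gene past the strain test, 10 fixed genes of the lists (PHA2, TYR1, ESBP6, BAT2, PDC5, TAT2, GAP1, GLN3, GAT1 and GCN4), the 5 nearest profiles to each group, and TRA1. THI3, DAL80, TKL1, TKL2, TAL1, NQM1, RPE1, the genes of the plasma membrane sensor and the neighbours were named after their values were seen. Titles number the arrays by time, so the pairing of same-numbered arrays comes from the labels; deviations from strain means correlated within pairs with r of 0.31, 0.0656 and 0.33 at 60, 90 and 120 min. The labels do not say whether the times are separate cultures, so the spread behind the p-values may be technical, and the number of arrays limits precision. A search for promoter motifs was planned and not made, as no promoter sequence was used here.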

Additional observations from a re-analysis of the deposited data

How the results depend on the processing

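Alternatives were the time point as a replicate block, centring on array medians, quantile normalization over the tested genes, leaving out genes under the lower quartile of means, trend and robust moderation, every probe set as a row, each array or each time left out, log2 of minutes, and 60 against 120 min only. The strain differences of the 9 genes, chosen with this contrast known, are given here as a description and support nothing. Over the 15 alternatives of the strain fit ARO10 ranged from 2.18 to 2.38, ARO9 from 1.75 to 2.01, ARO8 from 0.49 to 0.60 and ARO4 from -1.02 to -0.74. Higher members numbered 3 under these 15. Lower members ranged from 1 to 3 with single arrays left out and were 1 without both 90 min arrays or without both 120 min arrays; fewer arrays enter these fits. Of the 58 list genes, 2 were higher and 12 lower without both 90 min arrays, and with single arrays left out 8 to 9 were higher and 14 to 16 lower. Centring on array medians gave 11 higher and 15 lower, and quantile normalization 9 higher and 15 lower. With the replicate block that pairs arrays of a time, 3 members were higher and 3 lower, and of the list genes 9 were higher and 16 lower; the block ended no call and added that of THI3. The synthesis minus breakdown difference ranged from -2.54 to -2.35 with single arrays left out. No slope or slope difference of the 9 genes passed under the alternatives run.

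Among the genes named, directions turned only for values not past the threshold, and the cause was not tested. The strain difference of GAP1 ranged from -0.12 to 0.040 with single arrays left out, and that of PHA2 was 0.021 without both 90 min arrays. With single arrays left out, the slope of ARO3 ranged from -0.026 to 0.12 and that of ARO8 from -0.17 to 0.0015. The slope difference ranged from -0.061 to 0.21 for ARO1, from -0.38 to 0.36 for ARO3, from -1.01 to 0.71 for ARO4, from -0.68 to 0.46 for ARO7, from -0.40 to 0.16 for ARO8, from -0.42 to 0.55 for ARO9 and from -0.044 to 0.55 for ARO10. That of ARO1 was -0.013 with quantile normalization. Centring moved the median difference of all genes from 0.00 to 0.05. ARO80, DAL80, the wild-type mean of GLN3 and the mutant means of SPL2 and JID1 lay under the mouse controls, which limits what their values show. The wild-type values of ARO10 and DAN1 lay near those controls, so the sizes of their differences are uncertain. SSY1 lay near them in both strains.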
